A study of Caenorhabditis elegans with 2 samples.

Results

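The weaker promoter peaks of the homeodomain protein DVE-1 in the late embryo of Caenorhabditis elegans, a nematode, numbered 1909 of 30000 peaks in the authors' pooled list. They were chosen by the authors' signal, by overlap with both replicates and by position. Each ranked in the pooled list below the strongest peaks, which the authors kept in a thresholded list, lay on an autosome, and shared at least 1 bp with a peak in the list of each of the 2 replicates. The summit of each lay at a promoter, taken as the window that reaches 1000 bp before and 200 bp past the 5′ end of a protein-coding gene. Of 23525 weaker autosomal peaks, 4960 overlapped a peak in both replicates, and the 1909 members were those of them with a summit at a promoter. The same position and overlap requirements kept 533 of the strongest, thresholded peaks, which serve here as the comparison, together with 4756 weaker promoter peaks that were not found in both replicates.

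The data came from chromatin immunoprecipitation and sequencing (ChIP-seq), which maps where a protein sits on DNA. There was 1 group of 2 biological replicates of strain OP398, genotype unc-119(tm4063) III; wgIs398, in which an integrated transgene supplies DVE-1 with a GFP-FLAG tag at its C terminus. Whole hermaphrodite animals at the late embryo stage were used, so tissues were mixed, and chromatin was sonicated. The labels describe the precipitation as made with an antibody against GFP, while their antibody field names dve-1. Per the text deposited with the lists the same control alignment served both replicates. Untagged worms and other stages were not analysed here.

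DVE-1 is best known for the mitochondrial unfolded protein response, in which nuclear genes for mitochondrial chaperones and proteases are induced when proteins misfold in mitochondria. In that response it acts in the nucleus together with the ubiquitin-like protein UBL-5 and in the same pathway as the transcription factor ATFS-1, and the chaperone gene hsp-6 is the usual reporter. Promoters of many worm genes are shared between neighbours or serve operons, so a summit near a 5′ end marks a position and not a regulated gene.

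Among the genes of this response with a weaker promoter peak was hsp-6, which encodes the mitochondrial HSP70 chaperone. Its peak lay on chrV:4827012-4827375 of the ce11 build, outside annotated genes, and its summit was 434 bp upstream of hsp-6, which is on the minus strand. The pooled signal was 59.2 at rank 2572, and the overlapping peaks had a signal of 23.7 in replicate 1 and 36.1 in replicate 2. The neighbouring gene C37H5.5 shares this summit in its own window. The bases within 100 bp of the summit, chrV:4827094-4827294, are printed to show the site at the gene for which the factor is best known, read 5′ to 3′ on the minus strand with the summit base as the capital letter.
hsp-6: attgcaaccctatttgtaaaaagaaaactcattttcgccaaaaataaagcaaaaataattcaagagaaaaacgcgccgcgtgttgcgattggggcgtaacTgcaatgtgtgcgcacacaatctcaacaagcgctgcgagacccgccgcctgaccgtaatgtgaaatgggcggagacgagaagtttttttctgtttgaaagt

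Sequences around summits that carry short motifs are shown next, because motif content was a measure the choice of peaks did not use. The motifs themselves were chosen with earlier results of these data known. Both strands were searched for TGATAAG, the extended form of the site bound by GATA factors, which in the worm include the intestinal regulators ELT-2 and ELT-7. Within 100 bp of the summit, TGATAAG occurred at 188 of 1909 weaker promoter peaks, or 9.85% (95% exact binomial interval 8.55 to 11.3). It occurred at 2.44% of the 533 strongest promoter peaks (1.3 to 4.13), at 7.42% of the unreproduced weaker promoter peaks and at 5.46% of windows of the same length at all 17242 autosomal promoters. Those promoter windows were each centred at the median member position, -202 bp, upstream of the 5′ end. The same windows served for the other motifs and for GC content. Windows centred 500 bp to either side of the weaker summits held it in 3.67%. The interval of the weaker promoter peaks lay above that of each of these other sets. Here and in all later shares no test was made between the kinds of peak, and intervals cover counting error only.

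Among 24 autosomal genes on a list of intestinal genes, 8 had a weaker promoter peak, each with its own summit, and 6 of the 8 summits had TGATAAG within 100 bp. Those 6 were at cpr-1, asp-1 and asp-5, which encode cathepsin-type proteases, at elt-7, a GATA factor of the intestine, at let-413, an epithelial polarity gene, and at inx-16, a gap junction gene. The summits at erm-1 and cpr-5 had none. How often TGATAAG stood at the promoters of the other genes on this list was not measured. The bases within 100 bp of the summit are printed for 5 of the 6, on the strand of the named gene, with TGATAAG or its reverse complement in capitals. They were chosen for printing after their values were seen. They lie on chrV:11975338-11975538 (cpr-1, plus strand), chrV:19051472-19051672 (asp-1, minus strand), chrV:8272187-8272387 (asp-5, plus strand), chrV:4770549-4770749 (elt-7, plus strand) and chrV:7978091-7978291 (let-413, minus strand).
cpr-1: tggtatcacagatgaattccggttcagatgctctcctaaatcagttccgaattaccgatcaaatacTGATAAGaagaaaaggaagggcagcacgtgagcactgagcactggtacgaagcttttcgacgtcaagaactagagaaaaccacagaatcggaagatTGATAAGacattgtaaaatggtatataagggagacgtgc
asp-1: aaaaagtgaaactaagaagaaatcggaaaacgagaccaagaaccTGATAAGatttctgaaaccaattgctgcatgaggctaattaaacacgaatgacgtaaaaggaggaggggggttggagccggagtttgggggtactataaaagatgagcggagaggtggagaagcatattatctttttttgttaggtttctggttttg
asp-5: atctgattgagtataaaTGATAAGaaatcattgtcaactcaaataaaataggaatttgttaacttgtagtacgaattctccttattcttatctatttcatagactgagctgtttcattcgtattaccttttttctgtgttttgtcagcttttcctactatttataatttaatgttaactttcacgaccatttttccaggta
elt-7: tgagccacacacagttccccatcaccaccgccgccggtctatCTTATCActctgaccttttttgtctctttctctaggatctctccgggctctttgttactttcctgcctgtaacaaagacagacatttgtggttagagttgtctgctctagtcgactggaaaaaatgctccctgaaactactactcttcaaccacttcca
let-413: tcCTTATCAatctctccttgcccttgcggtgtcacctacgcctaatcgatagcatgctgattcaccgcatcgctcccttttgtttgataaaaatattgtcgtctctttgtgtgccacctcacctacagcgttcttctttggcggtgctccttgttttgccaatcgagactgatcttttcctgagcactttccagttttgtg

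Of these 5 windows, that of cpr-1 held 2 copies of the heptamer and the others 1 each. The cpr-1 summit was 113 bp upstream of its gene with a pooled signal of 71.3, a replicate 1 signal of 29.7 and a replicate 2 signal of 39.8. The asp-1 summit was 820 bp upstream of its gene with a pooled signal of 58.9, a replicate 1 signal of 31.7 and a replicate 2 signal of 37.3. The asp-5 summit was 98 bp upstream of its gene with a pooled signal of 54, a replicate 1 signal of 30.8 and a replicate 2 signal of 29.6. In both replicates these 3 peaks stood above the medians over all members, 22.1 and 25.5. The elt-7 summit was 21 bp upstream of its gene with a pooled signal of 47.9, a replicate 1 signal of 25.7 and a replicate 2 signal of 20.4. The let-413 summit was 415 bp upstream of its gene with a pooled signal of 44.8, a replicate 1 signal of 17.9 and a replicate 2 signal of 22.5. The 2 strongest weaker promoter peaks with TGATAAG within 50 bp of the summit, on chromosomes II to V, were at lec-6, which encodes a galectin, and wrm-1, which encodes a beta-catenin. The lec-6 window is chrIII:600733-600833 on the minus strand, and the wrm-1 window is chrIII:5722086-5722186 on the plus strand. These and the following 3 sequences, each with the heptamer or its reverse complement in capitals, were also chosen after their values were seen.
lec-6: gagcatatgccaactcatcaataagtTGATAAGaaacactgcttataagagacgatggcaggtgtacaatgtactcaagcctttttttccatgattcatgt
wrm-1: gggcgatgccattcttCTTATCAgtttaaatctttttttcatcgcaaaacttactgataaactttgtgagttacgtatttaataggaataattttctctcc

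A second heptamer, CTGCGTC, stood closer to the summits. It was found within 100 bp of 203 of 1909 weaker promoter peaks, or 10.6% (9.29 to 12.1), against 16.1% of the strongest promoter peaks (13.1 to 19.5), 4.1% of the unreproduced ones, 3.18% of all autosomal promoters and 1.91% of the windows 500 bp away. The 3 strongest members with it within 50 bp on chromosomes II to V were at acy-3, an adenylyl cyclase gene (chrIII:3786673-3786773, minus strand), at nhr-58, a nuclear hormone receptor gene (chrV:532137-532237, plus strand), and at C06B8.7 (chrV:15497876-15497976, plus strand). The C06B8.7 window held 2 copies.
acy-3: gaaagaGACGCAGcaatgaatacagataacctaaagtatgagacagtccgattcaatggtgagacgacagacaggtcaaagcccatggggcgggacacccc
nhr-58: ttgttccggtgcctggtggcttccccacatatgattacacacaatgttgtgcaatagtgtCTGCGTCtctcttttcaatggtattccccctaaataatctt
C06B8.7: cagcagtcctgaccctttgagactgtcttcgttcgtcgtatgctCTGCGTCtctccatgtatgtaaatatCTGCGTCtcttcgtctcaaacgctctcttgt

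Among the weaker promoter peaks 15 of 1909 had both heptamers within 100 bp, and 1533, or 80.3%, had neither. CTGCGTC became less frequent with falling pooled signal, from 14.6% of the 478 members with the highest signal through 11.5% and 9.64% to 6.71% of the 477 with the lowest. TGATAAG showed no such order, with 8.58%, 9.01%, 13% and 8.81% in the same groups. Members that overlap a pooled peak of higher rank, described below, were mostly of low signal. Without them CTGCGTC stood at 11.7% of 1631 members, and its order by signal was not recomputed. In bins of 50 bp, CTGCGTC reached 4.3 matches per 100 members beside the summit, on the side of lower chromosome coordinates. TGATAAG reached 3.3 there in a broader rise that spanned 100 bp to either side. These bins were not turned to the strand of a gene.

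**Figure D1:**
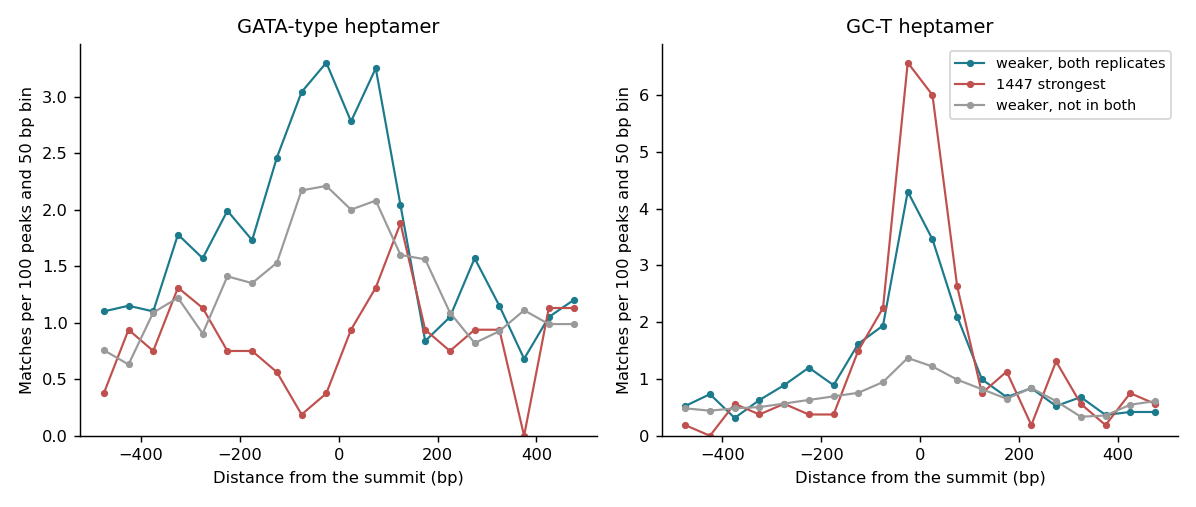
Matches per 100 peaks in bins of 50 bp (vertical axes) against distance from the peak summit in bp (horizontal axes), for the GATA-type heptamer TGATAAG (left) and for CTGCGTC, labelled GC-T heptamer (right). Weaker promoter peaks (teal, 1909) reach 3.3 for TGATAAG beside the summit while the strongest promoter peaks (red, 533) lie at 0.375 in that bin, and for CTGCGTC the weaker peaks reach 4.3 under a higher maximum of the strongest.

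Other short sequences were checked in the same windows and on both strands. GAGAGA was present at 26.6% of the weaker promoter peaks, 33.8% of the strongest and 13.6% of all autosomal promoters. ATTA, the core letters bound by many homeodomain proteins, was present at 81.1% of the weaker promoter peaks, 65.1% of the strongest and 89.4% of all autosomal promoters. TAATTA, which contains ATTA, gave 7.7%, 3.94% and 12.2% in that order. TATAAA gave 20.3%, 9.76% and 25.1%. Base composition differed between the same sets. The median GC content of the window was 38.3% at weaker promoter peaks, 44.3% at the strongest, 35.8% at the unreproduced ones and 33.3% at all autosomal promoters. The part of GC content in the shares of these motifs was not tested.

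The members had pooled signals from 19.1 to 78.8 with a median of 46, and ranks from 1449 to 29940 with a median of 4258. Signal is the authors' own value from the peak caller, in units the sources used here do not give, and it chose the members. At the rank limit, the last peak above it had a signal of 78.9 and lay at amph-1 and srm-3, and the first peak below it also had 78.9 and overlapped no peak in replicate 1. The first member, at rank 1449, had 78.8 and lay 662 bp upstream of lin-59, a gene for a histone methyltransferase. The last member, at rank 29940, had 19.1 and lay 109 bp upstream of alkb-7. At the far end of the promoter window, 39 members had summits in its last 50 bp, and 43 reproducible summits in no window lay in the next 50 bp. At the downstream end the numbers were 65 and 35.

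Reproducible overlap declined steeply with rank. Among autosomal peaks in the band just below the limit, up to rank 2000, 97% overlapped a peak in both replicates, and the share was 78.5% for ranks 3001 to 5000, 25.2% for ranks 7501 to 10000 and 3.35% for ranks 20001 to 30000. The share with a summit at a promoter was 46.8% among reproducible peaks of rank 2001 to 3000 (43.3 to 50.4), 40.3% at ranks 3001 to 5000 and 33% at ranks 7501 to 10000. Over all weaker reproducible peaks it was 38.5% (37.1 to 39.9), against 44.3% of the strongest reproducible peaks (41.5 to 47.2), 25.6% of the unreproduced weaker peaks, and 22.3% of autosomal sequence that lies in promoter windows. The unreproduced promoter peaks ranked lower, with a median of 17560 against 4258, and every comparison with them carries this difference. In each weaker band the reproducible share was the higher. It was 40.3% against 34.5% unreproduced at ranks 3001 to 5000 and 34.4% against 32.6% at ranks 5001 to 7500. At ranks 20001 to 30000 it was 35.4% against 24.2%.

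**Figure D2:**
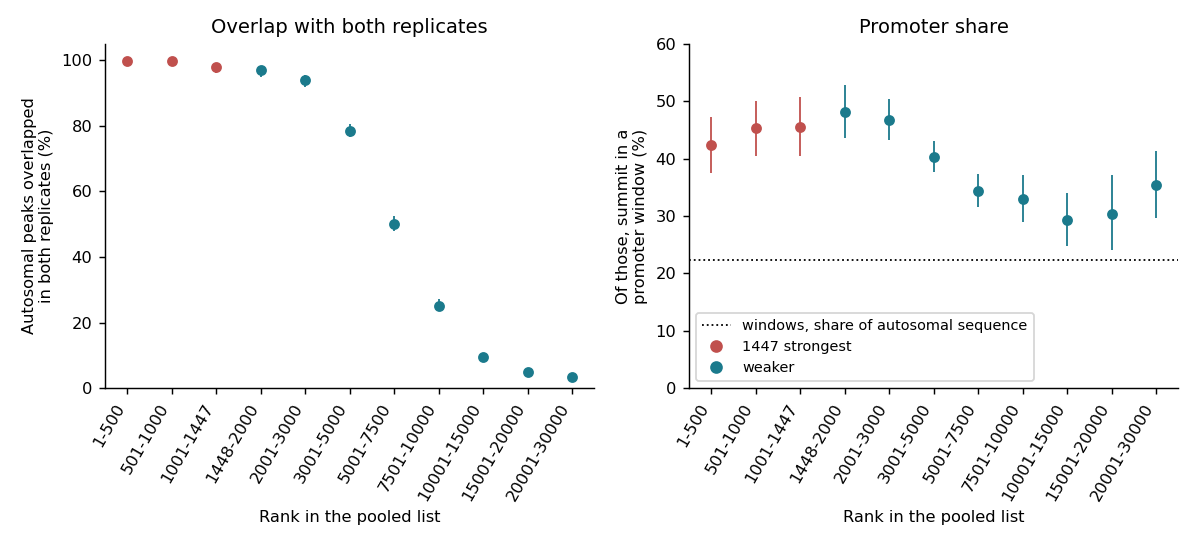
Left, the share of autosomal pooled peaks that overlap a peak in both replicates, and right, the share of those with a summit in a promoter window, both in % against bands of rank in the pooled list. Bars are exact 95% binomial intervals, red points are bands of the strongest peaks, teal points weaker bands, and the dotted line is the 22.3% of autosomal sequence in windows; overlap falls from 97% to 3.35% across the weaker bands.

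The 2 replicates ranked the members loosely alike. In replicate 1 the overlapping peak had a median signal of 22.1 and a median rank of 4302 of 11568 peaks, and in replicate 2 a median signal of 25.5 and a median rank of 5102 of 15750. Spearman's rho of the 2 signals over the members was 0.287, against 0.414 over the strongest promoter peaks, both over ranges that the choice of peaks narrowed. Replicate summits lay within 50 bp of the pooled summit in both replicates for 929 members, or 48.7%, against 85% of the strongest. Of the members, 88.4% ranked in neither replicate's own list as high as the rank limit applied to the pooled list.

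Many members of low rank overlapped a stronger pooled peak. Peaks in the pooled list can overlap one another, and 278 of 1909 members, or 14.6% (13 to 16.2), shared at least 1 bp with a pooled peak of higher rank. That share was 2.17% of the 1104 members of rank up to 5000, 12.4% at ranks 5001 to 10000, 55.7% at ranks 10001 to 20000 and 92.8% of the 97 members beyond rank 20000. The overlapping members had a median pooled signal of 27 against 48.8 for the others, yet their median replicate signals were about equal, at 22 and 22.1 in replicate 1 and 24.9 and 25.6 in replicate 2. The alkb-7 member of rank 29940 was such a case, since the same replicate peaks, with signals of 32.2 and 38.6, also overlapped another member at alkb-7 of rank 2387 and signal 61.5.

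**Figure D3:**
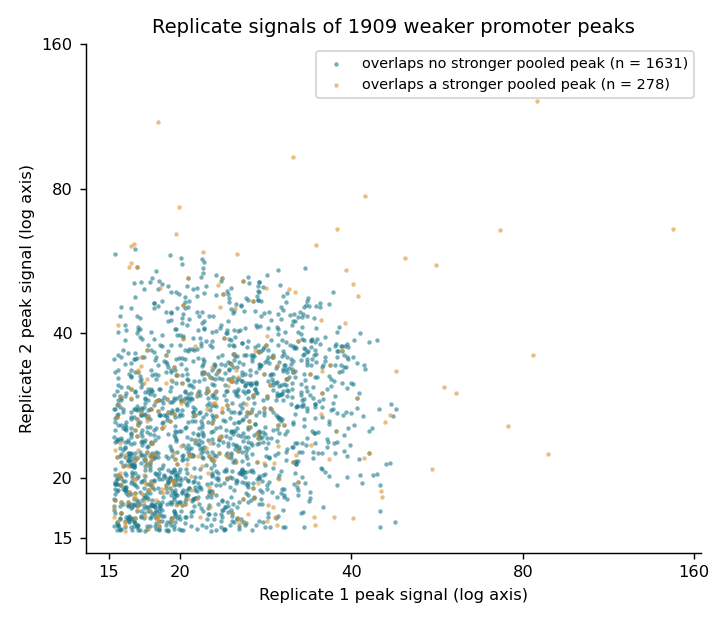
Signal of the overlapping peak in replicate 1 (horizontal, log axis) and replicate 2 (vertical, log axis), in the authors' units of each list, for the 1909 weaker promoter peaks. Orange points are the 278 members that overlap a pooled peak of higher rank, and teal points the other 1631; the points with the highest replicate signals are orange.

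Member summits were most frequent close upstream of 5′ ends. The window that chose the members reaches mostly upstream, so an upstream majority was set by that choice. Relative to the nearest 5′ end, with negative positions upstream, the median member summit was at -202 bp and the quartiles were -458 and -60 bp. The median was -222 bp for the strongest promoter peaks and -286 bp for the unreproduced ones. Within 250 bp upstream lay 765 members, or 40.1% (37.9 to 42.3), against 50.8% of the strongest (46.5 to 55.2). Downstream of the 5′ end lay 309 members, or 16.2% (14.6 to 17.9), against 5.07% of the strongest (3.36 to 7.28) and 17.6% of the unreproduced. A coding exon held 9.69% of the member summits, 1.13% of the strongest and 18.5% of the unreproduced, and 72.3% of the member summits lay outside annotated genes.

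**Figure D4:**
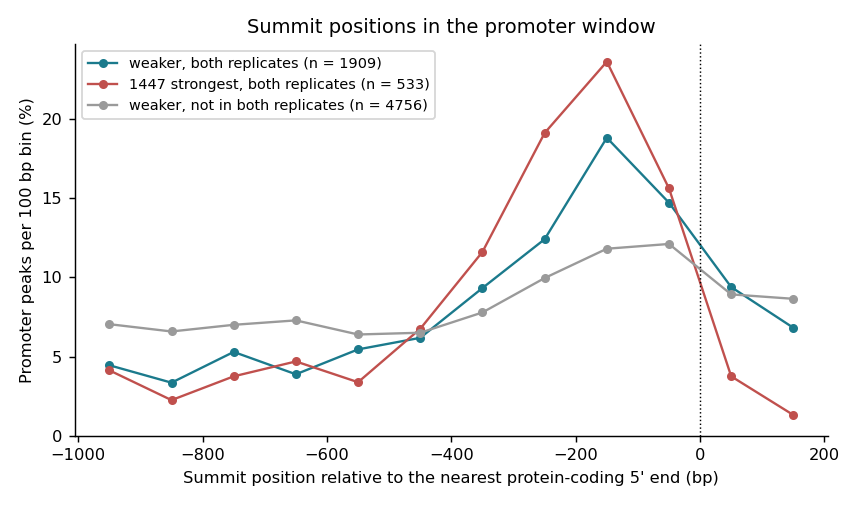
Share of promoter peaks (vertical axis, % per 100 bp bin) against the position of the summit relative to the nearest protein-coding 5′ end in bp, negative upstream. The weaker reproducible peaks (teal, 1909) peak at 18.8% in the bin centred 150 bp upstream, below the 23.6% of the strongest (red, 533), and keep 9.38% in the first bin downstream, where the strongest have 3.75% and the unreproduced (grey, 4756) 8.92%.

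Most member summits had 1 candidate gene. A single gene window held 75.8% of the member summits (73.8 to 77.7), 2 gene windows held 23%, and 3 or more held 1.2%, against 61.5%, 35.5% and 3% of the strongest. Of the 439 members in the windows of 2 genes, 403, or 91.8%, had the 2 genes on opposite strands. The share was similar for the strongest, at 93.1%, and for the unreproduced, at 88.5%. Genes for tRNA, snoRNA or snRNA lay within 200 bp of 48 member summits, or 2.51% (1.86 to 3.32), against 8.82% of the strongest (6.55 to 11.6). A pair of telomeric repeats in a row was found at 1.68% of the members and 7.13% of the strongest.

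The members reached 2125 of 17242 autosomal protein-coding genes, a background share of 12.3%, and any summit of the strongest peaks reached 758 genes, a share of 4.4%. Of the 2125 genes, 2040 had no summit of the strongest peaks, which is 12.4% of the genes without one. The other 85 genes had both kinds, and 27 of them kept a member when those overlapping one of the strongest peaks were set aside. There were 263 genes with 2 or more member summits and at most 4 in 1 window. Members were spread over all autosomes, with 20.2 per Mb on chromosome V, 20.4 on IV, 23.8 on II, 25.7 on I and 27.5 on III. The share of genes reached was 9.51% on V and 16.4% on III, and 11.1% and 16.6% when the chemoreceptor genes, many of which lie on V, were left out.

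The gene classes were described over 55 lists of known genes, with shares set beside 12.3% for weaker and 4.4% for strongest peaks, and without a test of any list. Of 53 lists with 10 or more autosomal genes, 21 had a share of at least 2 times the background among the weaker targets and 28 among the strongest, and 15 lists did so in both. Shares are also given among genes without a strongest summit. Together the 21 lists, which were picked by their share, held 277 target genes. These were 13% of the 2125 targets, and 1540 targets were on none of the 55 lists.

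Chromatin and nuclear transport genes had the highest shares. Of 24 chromatin remodelling genes, 11 had a weaker promoter peak, or 45.8% (25.6 to 67.2), and 5 a strongest one. The peak of highest signal was at lin-40, a component of the NuRD-type complex, with a pooled signal of 72.7, a replicate 1 signal of 27.2 and a replicate 2 signal of 41.7. Those at pbrm-1 and swsn-1, subunits of the SWI/SNF complex, had pooled signals of 67.7 and 64.4. Of 41 nuclear pore and import genes, 18 had a weaker peak, or 43.9% (28.5 to 60.3), and 10 a strongest one, with pooled signals of 71.3 at npp-6 and 63.5 at npp-2, both nucleoporins, and 64.9 at imb-2, an importin. The npp-6 summit also lay 181 bp downstream of the 5′ end of spd-5, a centrosome gene. Among genes without a strongest summit, 57.9% of the remodelling genes and 54.8% of the pore genes had a weaker one.

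Genes of growth and cell division were also frequent. DNA replication genes had 16 of 42, or 38.1% (23.6 to 54.4), with pooled signals of 63.6 at div-1 and 58.8 at pola-1, both of DNA polymerase alpha, and 60.1 at rfc-1, a clamp loader subunit. Cell cycle and mitosis genes had 25 of 81, with 70.1 at cye-1, the cyclin E gene, and 69.2 at cyk-4, needed for cytokinesis. Pre-mRNA splicing genes had 19 of 67, among them prp-40 at 76.5, and RNA decay and modification genes 17 of 61, among them smg-2 of nonsense-mediated decay at 76.1 and adr-1 at 77.3. These lists also held at least 2 times the background of the strongest peaks. Without replicate 1, the cell cycle and RNA decay lists fell below 2 times the weaker background. Without replicate 2, the cell cycle and splicing lists did. The RNA decay list also fell below it when only the nearest gene was assigned.

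Of the lists, 6 stood at 2 times the background or more at the weaker peaks and not at the strongest. Proteasome subunits had 11 of 33 genes, or 33.3% (18 to 51.8), against 2 for the strongest peaks, with pooled signals of 68 at rpt-1, an ATPase of the regulatory particle, and 64.3 at pbs-3 and 60.8 at pas-4, subunits of the core. Ubiquitin conjugation genes had 16 of 57 against 4, with 75 at rbx-1, a ring protein of cullin ligases, and 69.6 at ubc-9, the SUMO-conjugating enzyme. The TOR pathway list had 6 of 16 against 1, including ragc-1, a Rag GTPase gene, at 65.9 and daf-15, the raptor gene, at 58.1. Its targets also included pha-4 at 41.9 and lpd-6 at 31.2, which stand on other lists as well. Aminoacyl-tRNA synthetases had 8 of 32 against 1, led by aars-1 at 77. Cytoskeleton and motor genes had 15 of 58 against 3, with 75.6 at dyci-1, a dynein intermediate chain gene, and 74.6 at tbb-1, a tubulin gene. Intestinal genes had 8 of 24, or 33.3% (15.6 to 55.3), against 1. When only the nearest gene was assigned, ubiquitin conjugation and intestine kept this level, and the other 4 lists fell below it. Without replicate 1, proteasome and cytoskeleton genes kept it and the other 4 fell below, and without replicate 2 ubiquitin conjugation, aminoacyl-tRNA synthetase and cytoskeleton genes fell below. The intervals of several of these lists reach the background or nearly so, as the lists are short. At the strongest peaks, the interval of each of the 6 lists held 2 times the background there. It was 0.743 to 20.2% for proteasome subunits and 1.08 to 14.4% for cytoskeleton and motor genes. These counts therefore do not set the 6 lists apart as particular to the weaker peaks.

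Autophagy and vesicle traffic genes stood at 2 times the background or more for both kinds of peak. Of 38 autophagy and lysosome genes, 16 had a weaker peak, or 42.1% (26.3 to 59.2), and 4 a strongest one. Signals were 77.4 at lgg-2, one of the ubiquitin-like proteins of the autophagosome, 75.1 at lgg-3, and 73.5 at cpr-3, a cathepsin B gene. Vesicle traffic genes had 30 of 91 with a weaker peak, or 33% (23.5 to 43.6), and 12 with a strongest one, or 13.2%. Signals were 75.2 at copz-1 of the COPI coat, 75.2 at cogc-2 of the Golgi tethering complex and 71.5 at clic-1, the clathrin light chain gene. The vesicle traffic list fell below 2 times the weaker background without replicate 1. Below the limit of 2 times the background, peroxisome and lipid genes had 26 of 114, or 22.8% (15.5 to 31.6), against 2 genes, or 1.75% (0.213 to 6.19), for the strongest peaks. Detoxification enzyme genes had 23 of 176, or 13.1%, close to the background, against 1.7%.

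**Figure D5:**
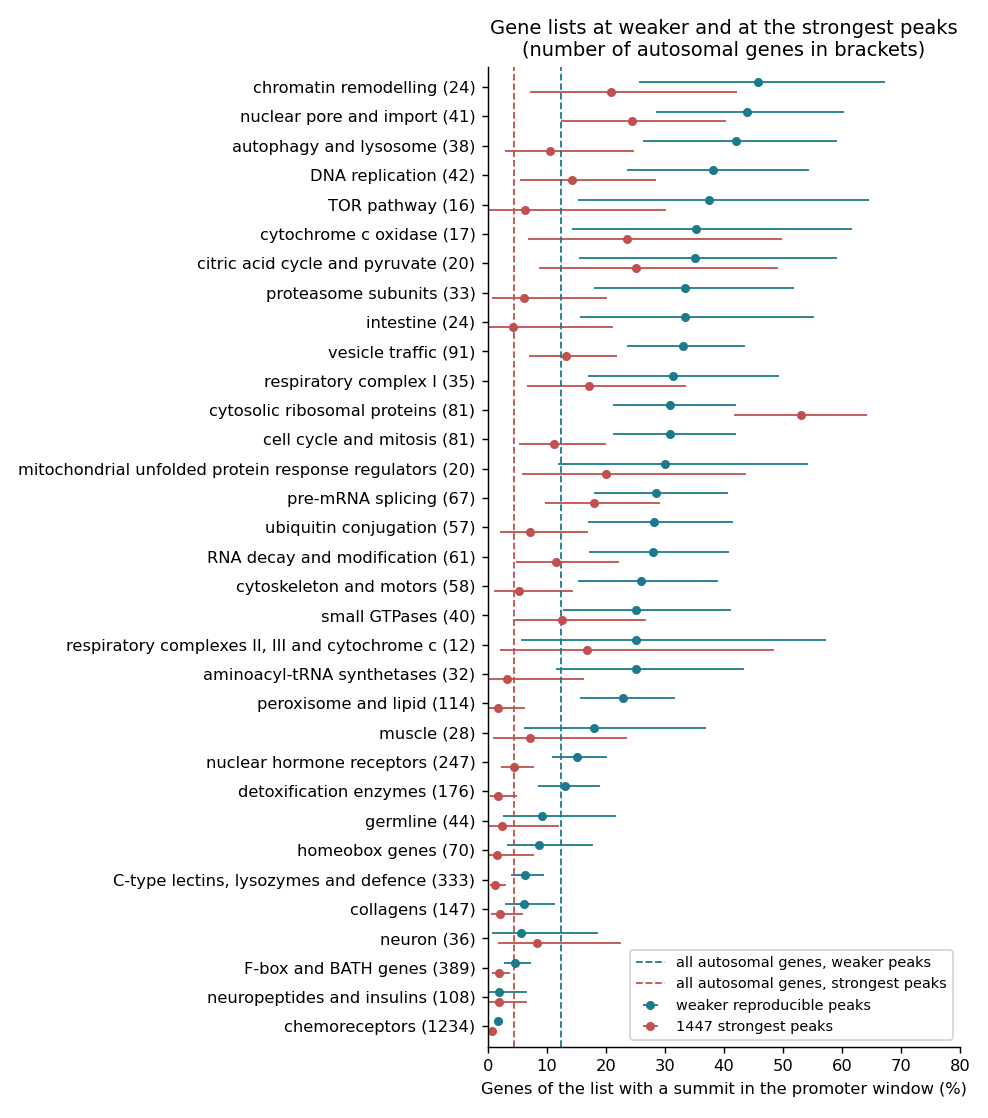
Share of the autosomal genes of each list with a summit in the promoter window (horizontal axis, %), for weaker reproducible peaks (teal) and for the strongest peaks (red), with exact 95% binomial intervals and the number of genes in brackets. Dashed lines are the shares over all autosomal genes, 12.3% and 4.4%; chromatin remodelling heads the list at 45.8%, cytosolic ribosomal proteins have the highest share of the drawn lists at the strongest peaks, 53.1%, and chemoreceptors are lowest at 1.7%.

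Ribosomal protein genes were mostly reached by the strongest peaks, and the weaker ones took much of the rest. Of 81 cytosolic ribosomal protein genes, 43 had a strongest summit and 25 a weaker one, and among the 38 without a strongest summit 24 had a weaker one, or 63.2% (46 to 78.2). Signals were 77.6 at rpl-24.2, 77.5 at rpl-13 and 75.6 at rpl-6, all just below the rank limit, and the median over the 25 summits was 61.4. Over all 81 genes, the weaker share fell below 2 times the background without replicate 1 and also without replicate 2. Lists at 2 times the background only for the strongest peaks numbered 13, among them the CCT chaperonin and prefoldin genes with 2 of 14 weaker and 5 strongest, the translation factors with 8 of 38 and 13, and the genes of folding in the endoplasmic reticulum with 5 of 26 and 8.

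Respiratory chain and mitochondrial genes were reached by both kinds. Complex I had 11 of 35 genes with a weaker peak and 6 with a strongest one, cytochrome c oxidase 6 of 17 and 4, and the citric acid cycle and pyruvate genes 7 of 20 and 5. Examples were ucr-1 of complex III at 73.8, isp-1, its Rieske protein, at 70, cox-4 at 64.5, and pdhb-1 of pyruvate dehydrogenase at 60.3. When only the nearest gene was assigned, complex I and cytochrome c oxidase fell below 2 times the background. The list of complexes II and III with cytochrome c fell below it too, and also without either replicate. The list of mitochondrial ribosomal proteins had 16 of 71, at 1.83 times the background.

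Regulators of the mitochondrial unfolded protein response had 6 of 20 genes with a weaker peak, or 30% (11.9 to 54.3), and 4 with a strongest one. The interval holds the background of 12.3%. The list fell below 2 times the background without replicate 1, and also when only the nearest gene was assigned. At ubl-5, for the ubiquitin-like partner of DVE-1, the summit lay 199 bp upstream with a pooled signal of 74.5, at rank 1606, and replicate signals of 37.4 and 34.3. At gcn-2, a kinase of the translation initiation factor eIF2, the pooled signal was 56.8, at nhr-80, a nuclear hormone receptor gene, 52.1, and at hda-1, a histone deacetylase gene, 49.8. At haf-1, a mitochondrial peptide transporter gene, it was 34.4, and at smo-1, the SUMO gene, 30. The genes nhr-80, haf-1 and smo-1 each had a second member at signals of 36.9, 22.5 and 30, and all 3 of these second members overlapped a pooled peak of higher rank. The atfs-1 gene itself had a strongest peak with a signal of 82.3 at rank 1334, not far above the limit, and no member.

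Mitochondrial chaperones and proteases had 4 of 17 genes and mitochondrial import had 4 of 20, at 1.91 and 1.62 times the background. Beside hsp-6 the first list had mppb-1, a processing peptidase gene, at 73.6, trap-1, a mitochondrial HSP90 gene, at 67.2, and spg-7, an inner membrane protease gene, at 37.4. The import genes were timm-23 at 72.3, tin-9.1 at 49.7, timm-17B.1 at 46.1 and tin-44 at 41.8, all for parts of the import machinery of the inner membrane or the space beside it. Further members lay at timm-23, tin-9.1 and tin-44 with signals of 32.8, 22.4 and 23.2, and those at tin-9.1 and tin-44 overlapped a pooled peak of higher rank. The chaperonin gene hsp-60 had a strongest peak, 605 bp upstream, with a signal of 169 at rank 246. Neither unc-119, the gene of the mutation in the strain, nor dve-1 had a pooled summit in its window, and dve-1 lies on the X chromosome, outside the choice of members.

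Large families of chemosensory, neuropeptide and cuticle genes were rarely reached. Chemoreceptors had 21 of 1234 genes with a weaker peak, or 1.7% (1.06 to 2.59), and 8 with a strongest one. Neuropeptides and insulins had 2 of 108, or 1.85% (0.225 to 6.53), F-box and BATH genes 18 of 389, collagens 9 of 147, and C-type lectins, lysozymes and defence genes 21 of 333, or 6.31% (3.95 to 9.48). Of 36 neuronal genes 2 had a member, or 5.56% (0.68 to 18.7), of 28 muscle genes 5, or 17.9% (6.06 to 36.9), and of 44 germline genes 4, or 9.09% (2.53 to 21.7). The intervals of these 3 lists hold the background, and the muscle share lies above it. Homeobox genes, the family of dve-1 itself, had 6 of 70, or 8.57% (3.21 to 17.7). Nuclear hormone receptors had 37 of 247, or 15% (10.8 to 20.1), near the background. Outside 5 of the large families, namely chemoreceptors, F-box and BATH genes, C-type lectins with lysozymes and defence genes, collagens, and neuropeptides with insulins, the share of genes with a member was 13.7%.

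The 10 members of highest signal came from varied genes, mostly on no list. They lay at lin-59, at ech-1.2, an enzyme of fatty acid oxidation, at acy-3, at ttx-7, at H41C03.3, at F25E5.1 with srh-89, at sms-3, at Y53F4B.11 with Y53F4B.9, at set-4, a histone methyltransferase gene, and at lec-6, with pooled signals from 78.2 to 78.8. The lin-59 and H41C03.3 members overlapped stronger pooled peaks, of signal 84.3 at lin-59 and of 348 at H41C03.3. The ech-1.2 summit lay downstream of the 5′ end, with replicate signals of 37.8 as the rank 1211 peak of replicate 1 and 40.2 in replicate 2.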

How the data were processed

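ChIP-seq of tagged DVE-1 was analysed from peak lists of 2 replicates. Per the deposited text descriptions, the authors called peaks on each replicate and on both together, with 1 control alignment, as peaks and background for a reproducibility threshold (IDR), and gave a thresholded list in build ce11 that equals the top of the pooled list. The deposited signal is the authors' enrichment value, used only within a list, except where replicate signals are set side by side, and the deposited summit offset gave each summit. What aligned the reads or called the peaks is not given in the sources used here, and depth is unknown, because peak lists hold no read totals.

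Pooled peaks were ranked by signal and assigned to 5′ ends of protein-coding genes of Ensembl release 115 (WBcel235, the assembly of ce11) in the window of 1000 bp before to 200 bp past them. Sequence came from the RefSeq copy of this assembly. Overlap needed 1 bp. Intervals are exact Clopper-Pearson 95% intervals over peaks or genes, and peaks of the same libraries are not independent samples. Replicates were separate biological replicates per the labels, and with 1 group no test between conditions was made.

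The members, the 55 gene lists, the motifs and the rule for named genes were chosen with earlier results of these data known. That rule takes the genes of the 10 strongest members, up to 3 genes of highest signal per list at 2 times the background or more, all members at mitochondrial stress regulators, chaperones, proteases and import genes, the genes at the rank limit, and always hsp-6, ubl-5, atfs-1, dve-1, hsp-60 and unc-119. Other genes named here, and all members of the intestinal list, were chosen after their values were seen. In the lists, 15 symbols matched no gene.

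Alternatives changed the window, the overlap, the replicates required, the rank range, the assignment of genes and the build, and left out peaks near small RNA genes or near dve-1 and unc-119. Chosen after seeing the data were a narrower motif window, lists without genes that have a strongest summit, and the removal of members that overlap a pooled peak of higher rank or whose replicate peak shares more bases with another pooled peak. Code was tested on simulated data, where 200 of 200 summits placed at known genes were recovered, and the 11619 and 15196 pooled peaks overlapped in replicates 1 and 2 equalled those from bedtools 2.31.1. The tools were scipy 1.17.1, matplotlib 3.10.9, pandas 2.3.3 and numpy 2.4.6 under Python 3.11.15.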

Additional observations from a re-analysis of the deposited data

How the results depend on the processing

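The quantities recomputed here were counts, a share and a median, which have no direction to change. Of 73 comparisons with the main setting, including alternatives chosen after seeing the data, 51 stayed within the tolerance used and 22 moved beyond it. Among those that moved, without replicate 1, were the number of peaks, 3569 against 1909, and of lists, 11 against 21. Comparisons of single lists or of positions with the strongest peaks were not recomputed. A window of 500 bp upstream to 100 bp downstream gave a promoter share of 27.6% and a median summit position of -157 bp, and one of 2000 bp to 500 bp gave 54.3% and -280 bp, against 38.5% and -202 bp. The share of autosomal sequence in these other windows is not given here. Requiring coverage of at least 50 percent of each pooled peak gave 39.9%. Requiring replicate peaks above the median of their own list left 991 peaks, 43.4%, 1127 target genes and 1056 without a strongest summit. Ranks up to 5000 left 1104 peaks, 43.8% and 1405 target genes. Assigning only the nearest gene gave 11 lists at 2 times the background, all of them among the 21. With overlap required in a single replicate (without replicate 1 or without replicate 2) the values were 2923 to 3569 peaks, 31.7% to 34.3%, 3129 to 3723 target genes, 3024 to 3599 without a strongest summit, -228 to -226 bp and 11 to 15 lists, of which 10 and 13 were among the 21. The number of weaker reproducible autosomal peaks was 5110 in ce10 against 4960.

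Among alternatives chosen after seeing the data, leaving out members that overlap a pooled peak of higher rank left 1631 peaks and gave 20 lists, 19 of them among the 21, and leaving out genes with a strongest summit gave 25 lists, which held all 21. Within 50 bp of the summit TGATAAG stood at 4.87% of the members, 1.31% of the strongest promoter peaks and 2.52% of all promoters, and CTGCGTC at 7.18%, 11.6% and 1.58%. The cause of these shifts was not tested beyond what each choice fixes by its construction. No paired analysis was possible because there was 1 group of samples. Depth is unknown, so weak or missing overlap in a replicate is not evidence that a site is unbound.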

Other observations

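The heptamer TGATAAG was also present at members of other classes. It lay within 100 bp of 7 of 22 member summits at C-type lectin, lysozyme and defence genes, or 31.8%, and CTGCGTC was at none of them. One such summit lay between clec-62 and clec-63, a divergent pair of C-type lectin genes, with a pooled signal of 52.7 and replicate signals of 20.6 and 24.3. Of 23 member summits at detoxification enzyme genes 4 had TGATAAG, including ugt-62, a glucuronosyltransferase gene, with a pooled signal of 60.6. The members at the actin genes act-2 and act-1, with signals of 64.3 and 44.7, also had it. At pha-4, the pharynx and gut regulator, the member of signal 41.9 had both heptamers within 100 bp. At the TOR pathway list, 3 of 7 member summits had CTGCGTC, that of pha-4 among them. At cytosolic ribosomal protein genes, 1 of 25 member summits had TGATAAG and 2 had CTGCGTC. These genes were picked after their values were seen, the counts are small, and no list was tested.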
